A study of Mus musculus with 6 samples.

Results

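Replication-dependent histone genes were taken as all genes whose array name runs from Hist1h to Hist4h, read from the non-control probes of the scanner files. The rule gave 56 genes with 68 probes, of 37067 genes and 56605 probes in all. Of these genes, 6 code for the linker histone H1, 18 for H2A, 14 for H2B, 9 for H3 and 9 for H4. By cluster, 42 lie in Hist1, 10 in Hist2, 3 in Hist3 and 1 in Hist4.

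Cochlear RNA came from female C57BL/6 mice aged 6 weeks, in 6 groups with 6 mice each and 1 array per group. The noise-only group had 2 h of intense noise. The dexamethasone groups had the same noise, then an intraperitoneal injection of dexamethasone (10 mg/kg, given in the labels as dexamethasone sodium triphosphate) straight afterwards, and were sampled at 12 h or 24 h. The saline groups had noise and a saline injection in its place, with the same 2 sampling times. The baseline group had neither noise nor drug. The sampling time of the noise-only group, which has no saline injection in its labels, and whether the RNA of the 6 mice was pooled are not given in the sources used here. The dexamethasone comparisons therefore lie among noise-exposed mice only.

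Histone proteins package DNA: H2A, H2B, H3 and H4 form the core of the nucleosome, and H1 binds the linker DNA between nucleosomes. Most genes in these clusters are transcribed in S phase, when new DNA needs new histones, and their mRNAs end in a conserved stem loop in place of a poly(A) tail, bound by the stem-loop binding protein Slbp. Some of them can also yield polyadenylated mRNA in cells that no longer divide. The adult cochlea's hair cells and neurons do not divide, whereas the bone around it can hold blood-forming marrow.

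The probes carry 60 bases each, and where they lie in the mRNA differs between members. The first set below shows probes that end with the last codon of an H1, H2A or H4 reading frame, with the stop codon in capitals.
Hist1h1e: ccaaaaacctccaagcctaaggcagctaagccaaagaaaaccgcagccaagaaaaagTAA
Hist1h2ah: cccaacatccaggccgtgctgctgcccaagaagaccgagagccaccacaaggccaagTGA
Hist2h2ac: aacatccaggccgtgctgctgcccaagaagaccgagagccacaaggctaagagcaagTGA
Hist2h2aa2: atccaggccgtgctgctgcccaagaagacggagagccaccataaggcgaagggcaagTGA
Hist1h4k: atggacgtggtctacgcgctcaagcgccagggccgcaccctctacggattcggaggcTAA
These probes lie on mm9 at chr13:23713707-23713766 (Hist1h1e), chr13:22127035-22127094 (Hist1h2ah), chr3:96024378-96024437 (Hist2h2ac), chr3:96043781-96043840 (Hist2h2aa2) and chr13:21842063-21842122 (Hist1h4k), all on the minus strand. The H2A probes are shown because they are nearly the same. Of the 56 members, 16 shared an exact run of at least 20 bases with another member's probe. The largest such group held 10 H2A genes, with a longest shared run of 45 bases, so the values of most of them cannot be read as those of single genes. Hist1h2ai is tied to that group by a run of 23 bases with Hist1h2ak. The probes named Hist1h2ai, Hist1h2an and Hist1h2ao also overlap in position on chromosome 13, by 23 to 49 bases.

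The second set shows 30-base stretches of probes that reach the stem loop at the end of the mRNA. They are shown because the 2 H2B members represented by such a probe gave lower values with dexamethasone than the other H2B members did. A stem-loop probe of Hist3h2ba, which does not represent that gene, gave -0.43 at 12 h and -0.22 at 24 h. The capitals mark the bases that match the stem-loop consensus.
Hist1h2bf: actcctaacccaaaGGCTCTTTTCAGAGCC
Hist2h2bb: ggctttacccaaaaGGCTCTTTTCAGAGCC
Hist1h3a: cggaattaaccaaaGGCTCTTTTCAGAGCC
Hist1h3g: acaaccactttaaaGGCTCTTCTTAGAGCC
Hist1h4m: ctttctcaactaaaGGCCCTTTTCAGGGCC
Hist1h1c: gcctcccctaacaatccaaaaGGCTCTTTT
The whole probes lie on mm9 at chr13:23665629-23665688 (Hist1h2bf, minus strand), chr3:96074056-96074115 (Hist2h2bb, plus), chr13:23853756-23853815 (Hist1h3a, minus), chr13:23627719-23627778 (Hist1h3g, plus), chr13:21903960-21904019 (Hist1h4m, plus) and chr13:23831330-23831389 (Hist1h1c, plus). Of the 68 probes, 12 held the stem loop whole or in part and 8 ended at a stop codon. In the group of Hist1h2bf, Hist2h2bb, Hist1h3a and Hist1h3i, pairs of probes shared runs of 21 or 23 bases at the stem loop. The run of 23 was between Hist1h2bf and Hist1h3a, and Hist1h3i was tied to the group by a run of 21 with Hist2h2bb.

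The third set shows probes inside the reading frames of H2B and H1 genes, with no stop codon or stem loop, so no base is in capitals.
Hist1h2bb: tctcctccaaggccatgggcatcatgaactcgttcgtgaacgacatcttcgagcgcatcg
Hist1h2bm: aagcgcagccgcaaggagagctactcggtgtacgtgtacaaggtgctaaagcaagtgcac
Hist1h1b: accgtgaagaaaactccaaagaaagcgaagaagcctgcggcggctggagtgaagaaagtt
Hist1h1d: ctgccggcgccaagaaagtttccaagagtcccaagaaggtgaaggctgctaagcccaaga
They lie on mm9 at chr13:23838827-23838886 (Hist1h2bb, plus strand), chr13:21814057-21814116 (Hist1h2bm, plus), chr13:21871923-21871982 (Hist1h1b, minus) and chr13:23647452-23647511 (Hist1h1d, plus).

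On each array 63.0% to 70.3% of all probes were well above background and none was saturated. Both 12 h arrays were on one slide and the other 4 on another. Level here means log2 of the background-subtracted signal minus the array's 75th percentile. The interval beside a fold is made from the scanner software's spot error, so it covers error within an array only. The probe named Hist1h4d was spotted 10 times, and after 1 spot marked as an outlier was left out the SD over its spots was 0.0168 to 0.0370 on the log2 scale. With 1 array per group, a difference between single arrays has no replicate check and no test. Of the cochlear markers, 10 of 10 for spiral ganglion neurons, 9 of 10 for other cochlear cells and 7 of 10 for hair cells were above background on all 6 arrays. The outer hair cell motor gene Slc26a5 was above background on none. All 12 erythroid, all 12 neutrophil and 9 of 12 B cell precursor markers were above background on all 6 arrays.

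Of the 56 members, 45 were above background on all 6 arrays, 7 on some and 4 on none (Hist1h2ad, Hist1h2al, Hist2h2aa1 and Hist3h2bb-ps). The 45 comprised 5 H1, 12 H2A, 11 H2B, 8 H3 and 9 H4 genes, or 34 in Hist1, 8 in Hist2, 2 in Hist3 and 1 in Hist4. The saline 12 h array gave the highest level for 37 of the 45 and the dexamethasone 24 h array the lowest for 30. All 12 H2A members peaked on the saline 12 h array, as did 8 of 9 H4, 6 of 8 H3, 4 of 5 H1 and 7 of 11 H2B members. Of the H2A members, 10 share probe sequence and are not separate readings. These counts run across slides, depend on the scaling, and were not made over all genes. With spike-in scaling, 12 of 15 measured H2A members lay lower in saline 12 h than in baseline (median -0.10). Set against each gene's own mean over the 6 arrays, the median H4 member stood at -0.55 in noise only, 0.07 in dexamethasone 12 h, 1.21 in saline 12 h, -0.68 in dexamethasone 24 h, -0.06 in saline 24 h and 0.03 in baseline. The median H2B member stayed between -0.18 and 0.18 on the same scale, which is not kept with spike-in scaling. There the H2B median in saline 12 h against baseline was -0.73.

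**Figure D1:**
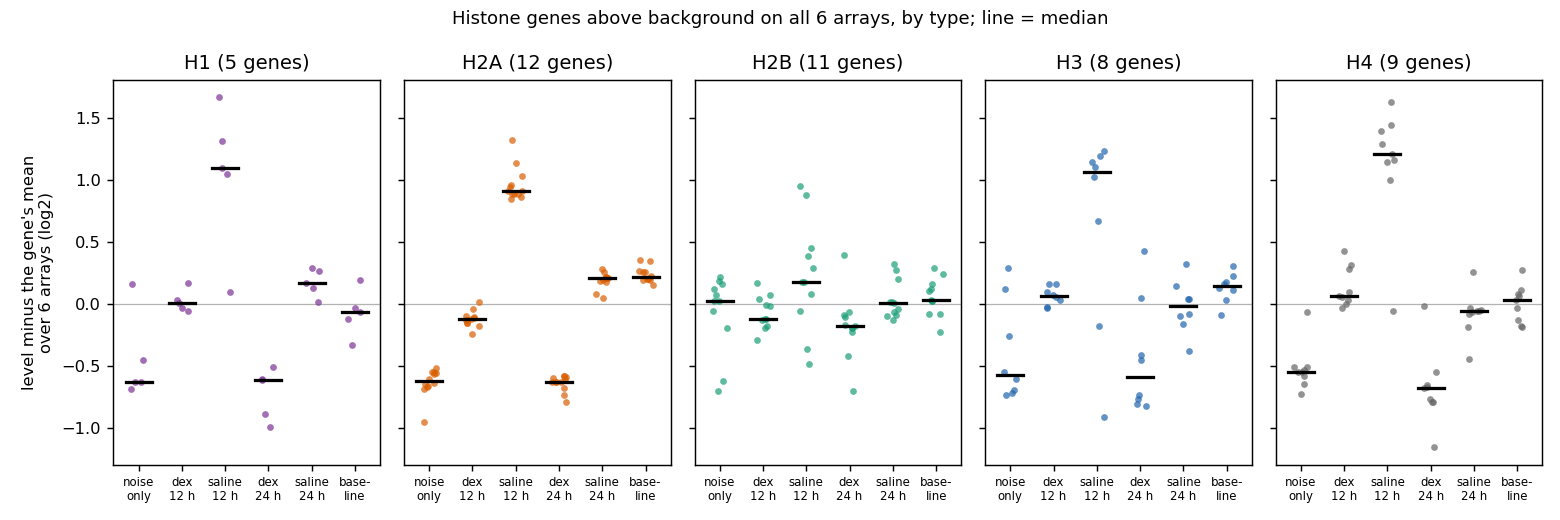
Level of each histone gene minus its own mean over the 6 arrays, in log2 units (vertical axis), on each array (horizontal axis), for the 45 genes above background on all 6 arrays. One panel shows each histone type, points are genes and lines are medians. The medians of H1, H2A, H3 and H4 peak on the saline 12 h array, at 0.91 to 1.21, while that of H2B there is 0.18. The peak depends on the scaling: with spike-in scaling the H2A median in saline 12 h against baseline is -0.10.

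The first question was whether dexamethasone after noise altered histone mRNA levels relative to saline. At 12 h, 27 of 50 measured members were at least 2-fold lower with dexamethasone than with saline, against 1.88% of all 24016 measured genes, and 1 was at least 2-fold higher, against 1.65%. In all, 43 of 50 lay below zero, against 52.9% of all genes. The median difference was -1.03 in log2 units, and -0.03 over all genes. Of the 56 members, 16 share probe sequence with another member, so the members counted are not all separate readings. This holds for every count of members below. The count and median with 1 member per shared probe sequence are given in the last section, and both are smaller in size. The medians were -1.09 for H1, -1.06 for H2A, -1.03 for H3 and -1.19 for H4. H2B stood nearest to zero, at -0.29, and at 0.013 when arrays were scaled on their spike-in RNAs. By cluster, the medians were -1.03 in Hist1, -0.96 in Hist2, -0.76 in Hist3 and -1.23 in Hist4.

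Among linker histones, Hist1h1d had a level of 0.91 in dexamethasone 12 h, 2.41 in saline 12 h, -0.24 in dexamethasone 24 h, 0.92 in saline 24 h, 0.07 in noise only and 0.42 in baseline. Its level was thus lower with dexamethasone at each time, 2.83-fold at 12 h (interval 2.14 to 3.73) and 2.23-fold at 24 h (1.69 to 2.94). Hist1h1b had a level of 2.22 in dexamethasone 12 h, 3.37 in saline 12 h, 1.39 in dexamethasone 24 h, 2.57 in saline 24 h, 1.65 in noise only and 2.47 in baseline. It was 2.21-fold lower with dexamethasone at 12 h (1.67 to 2.92) and 2.26-fold lower at 24 h (1.71 to 2.99). Hist1h1b and Hist1h1d were the only members at least 2-fold lower at both times. Hist1h1a was 2.54-fold lower at 12 h and 1.54-fold lower at 24 h, and Hist1h1e 2.05-fold and 1.67-fold lower. The testis-type linker histone Hist1h1t was dim. It read -4.01 in dexamethasone 12 h and -3.31 in saline 12 h, and was not well above background in saline 24 h.

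Among H2A genes, Hist1h2ah had a level of 7.27 in dexamethasone 12 h, 8.28 in saline 12 h, 6.80 in dexamethasone 24 h, 7.65 in saline 24 h, 6.79 in noise only and 7.59 in baseline. It was 2.01-fold lower with dexamethasone at 12 h (1.53 to 2.66) and 1.81-fold lower at 24 h (1.37 to 2.39). The H2A members with near-identical probes gave near-identical values; Hist1h2aa, known from testis, is among them. All 12 measured H2A members lay between -0.89 and -0.78 at 24 h. Hist1h2ab, which shares no such run with them, read 4.87 in dexamethasone 12 h and 6.14 in saline 12 h, a 2.41-fold lower level (1.83 to 3.18). At 24 h it read 4.44 with dexamethasone and 5.30 with saline. Hist3h2a, from the Hist3 cluster, was 2.26-fold lower with dexamethasone at 12 h and 1.76-fold lower at 24 h.

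Among H4 genes, Hist1h4d had a level of 6.65 in dexamethasone 12 h, 7.77 in saline 12 h, 5.95 in dexamethasone 24 h, 6.59 in saline 24 h, 6.09 in noise only and 6.70 in baseline. It was 2.16-fold lower with dexamethasone at 12 h (1.64 to 2.85) and 1.56-fold lower at 24 h (1.18 to 2.06). Hist4h4, the only member of its cluster, was 2.35-fold lower at 12 h and 1.63-fold lower at 24 h. Hist1h4j was 2.46-fold lower at 12 h. In all, 7 of 9 H4 members were at least 2-fold lower at 12 h and none at 24 h. Hist1h4h differed from the other H4 members. It read -1.96 in dexamethasone 12 h and -2.08 in saline 12 h, and its 12 h difference lay within spot error.

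Among H3 genes, Hist1h3c read 2.93 in dexamethasone 12 h and 4.03 in saline 12 h, and 2.16 in dexamethasone 24 h and 3.04 in saline 24 h. It was 2.16-fold lower at 12 h (1.63 to 2.84) and 1.84-fold lower at 24 h (1.39 to 2.42). Hist1h3a had the lowest difference of all measured members at 12 h, 3.18-fold lower (2.13 to 4.75), on a dim probe that was not well above background in dexamethasone 24 h. Hist1h3g was 2.18-fold lower at 24 h (1.5 to 3.17). The H3 genes of the Hist2 cluster split. Hist2h3b was 2.39-fold lower at 12 h, and Hist2h3c1 read -1.17 in dexamethasone 12 h and -2.18 in saline 12 h, 2.02-fold higher (1.52 to 2.67). Hist2h3c1 was also 1.42-fold higher at 24 h (1.08 to 1.89), and Hist2h3c2 1.35-fold higher (1.02 to 1.78).

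Of 11 H2B members above background on all arrays, 5 kept within 0.5 log2 units over the 6 arrays, against 1 of 9 H4 members and none of the H1, H2A and H3 members. These counts run across slides and were not made over all genes or with spike-in scaling. That scaling moved every gene by -0.79 in saline 12 h against baseline, where the H2B median was then -0.73. The counts therefore cannot show that H2B levels were steady under both scalings. Hist1h2bb had a level of 3.05 in dexamethasone 12 h, 3.35 in saline 12 h, 2.98 in dexamethasone 24 h, 3.19 in saline 24 h, 3.20 in noise only and 3.28 in baseline. Hist1h2bm read 3.00 in dexamethasone 12 h and 3.30 in saline 12 h, and 2.83 in dexamethasone 24 h and 2.95 in saline 24 h. Both stayed within spot error at both times. A second probe of Hist1h2bb, 123 bases away, gave -0.52 for dexamethasone against saline at 12 h and 0.88 for saline 12 h against baseline, where the first gave -0.30 and 0.07. Hist1h2ba, a testis-type H2B, read 2.18 in dexamethasone 12 h and 2.53 in saline 12 h, also within spot error. Of 12 H2B members measured at 12 h, 1 was at least 2-fold lower, and at 24 h none of 11 was. That member, Hist1h2bf, read -0.31 in dexamethasone 12 h and 0.76 in saline 12 h, 2.11-fold lower (1.59 to 2.78). Hist2h2bb read 0.29 in dexamethasone 24 h and 1.27 in saline 24 h, 1.97-fold lower (1.49 to 2.60). Hist1h2bf and Hist2h2bb are the H2B genes whose representing probe covers the stem loop. Hist3h2ba also has a probe at the start of the stem loop, which gave -0.43 at 12 h and -0.22 at 24 h. The probe that represents Hist3h2ba gave -0.35 and -0.33. Hist1h2be was 1.44-fold higher with dexamethasone at 24 h (1.09 to 1.90).

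At 24 h, 3 of 45 measured members were at least 2-fold lower with dexamethasone than with saline, against 1.53% of 22562 genes, and none was at least 2-fold higher, against 1.64%. Below zero were 42 of 45, against 50.8% of all genes, with a median of -0.71 against -0.01. The medians were -0.77 for H1, -0.84 for H2A, -0.21 for H2B, -0.61 for H3 and -0.62 for H4. Of the 45 members measured at both times, 39 (86.7%) were lower at both, against 32.9% of 22354 genes. Lower by at least 0.5 log2 units at both were 30 (66.7%), against 3.46%. Members with shared probe sequence are each counted here, so these are not all separate readings. Higher at both were 3, namely Hist1h2be, Hist2h3c1 and Hist2h3c2.

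**Figure D2:**
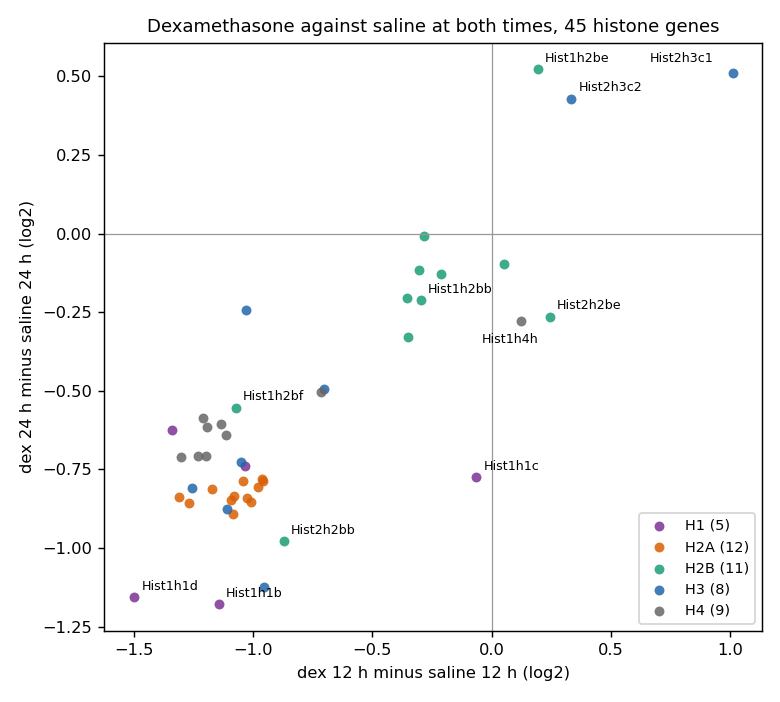
Log2 difference between dexamethasone and saline at 12 h (horizontal axis) and at 24 h (vertical axis) for 45 histone genes, coloured by type. Most points lie at the lower left, below zero on both axes, 3 genes are above zero at both times, and most H2B genes lie near zero.

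A fit over both times with limma, on 4 arrays with time as a term and 1 residual degree of freedom, gave no member with an adjusted p under 0.05. No gene passed among all 24598 tested. The smallest adjusted p was 0.161, for members as for all genes. At an unadjusted p under 0.05, 37 of 50 members passed, against 14.7% of all genes: 35 lower, against 9.05%, and 2 higher, against 5.61%. Members with shared probe sequence are not separate readings in these counts. The fitted log2 difference was -1.33 for Hist1h1d (SE 0.142, limma adjusted p = 0.161) and -1.16 for Hist1h1b (SE 0.112, limma adjusted p = 0.161). The median over members was -0.89, against -0.01 over all genes. Without the saline 12 h array the median was -0.29, and without the dexamethasone 24 h array -0.55, in both cases with no time term. With each array scaled on its spike-in RNAs, 16 members passed, all lower, among 478 genes in all, 172 lower and 306 higher. They included 11 H2A genes, 9 of them in the group with shared probe sequence. Under that scaling limma took each gene's variance wholly from the trend over all genes, with 24598 total degrees of freedom, against 4.68 with the 75th percentile.

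Spike-in scaling also shifted each comparison as a whole. It moved every gene by -0.06 in noise only against baseline, -0.79 in saline 12 h against baseline, -0.25 in saline 24 h against baseline, 0.30 in dexamethasone 12 h against saline 12 h and -0.11 in dexamethasone 24 h against saline 24 h, in log2 units. At 12 h, 4 of 50 members were then at least 2-fold lower with dexamethasone, against 0.725% of all genes, and 1 higher, against 3.59%. The medians were -0.79 for H1, -0.76 for H2A, -0.73 for H3, -0.89 for H4 and 0.013 for H2B, against 0.28 over all genes.

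In bulk tissue, fewer cells of a type and less RNA per cell cannot be told apart. Beside the histone genes, all 27 DNA replication genes and all 20 mitosis genes measured were lower with dexamethasone than with saline at both times. The replication genes lay at -0.30 or lower at 12 h, so the spike-in shift of 0.30 brings the highest of them to about zero. Their medians were -0.62 at 12 h and -0.82 at 24 h, and the mitosis medians -0.88 and -0.98. Markers of blood cell precursors were low as well. Of 12 erythroid markers, 11 were below zero at 12 h (median -0.65) and 12 at 24 h (-1.09). Of 12 neutrophil markers, 11 were below zero at each time (-0.81 and -0.48). The B cell markers had medians of -1.12 at 12 h, with 10 of 10 below zero, and -0.18 at 24 h, with 8 of 11. Other cochlear markers had 4 of 9 below zero at 12 h (0.08) and 9 of 10 at 24 h (-0.66). Below zero were 2 of 7 hair cell markers at 12 h and 4 of 7 at 24 h, and 2 of 10 spiral ganglion neuron markers at each time. Of all measured genes, 52.9% were below zero at 12 h and 50.8% at 24 h. The part of these lists in the histone differences was not tested.

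The histone values were also split by sequence features of the probes, and this split was made with the values known. The sets overlap and differ in histone type, so position, GC content and type cannot be told apart. Probes holding the whole stem loop or its start had a median of -1.05 at 12 h and -0.84 at 24 h for dexamethasone against saline. Probes ending at a stop codon had -1.02 and -0.80, close to the stem-loop probes. Most of them are H2A probes with shared sequence. Probes with under 50% GC and no stem loop had medians of 0.05 over 17 measured probes at 12 h and -0.13 over 13 at 24 h. Probes with at least 50% GC had -1.11 and -0.78 outside H2B, over 27 probes, and -0.33 and -0.17 within H2B, over 6. Among probes with the letters of a poly(A) signal, 4 were measured, with medians of -0.08 and -0.30.

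Some genes with more than 1 probe differed between their probes. For the linker histone gene Hist1h1c, the probe at the start of the stem loop gave -0.90 at 12 h and -0.86 at 24 h. The probe that represents it lies 688 bases further along and gave -0.06 and -0.77. For Hist3h2a the coding probe gave -1.17 and -0.81, and a probe 567 bases downstream with 35% GC gave 0.15 and -0.26. Other pairs were closer together: the probes of Hist1h4k gave -1.19 and -1.18 at 12 h, and those of Hist2h2be 0.25 and 0.23.

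**Figure D3:**
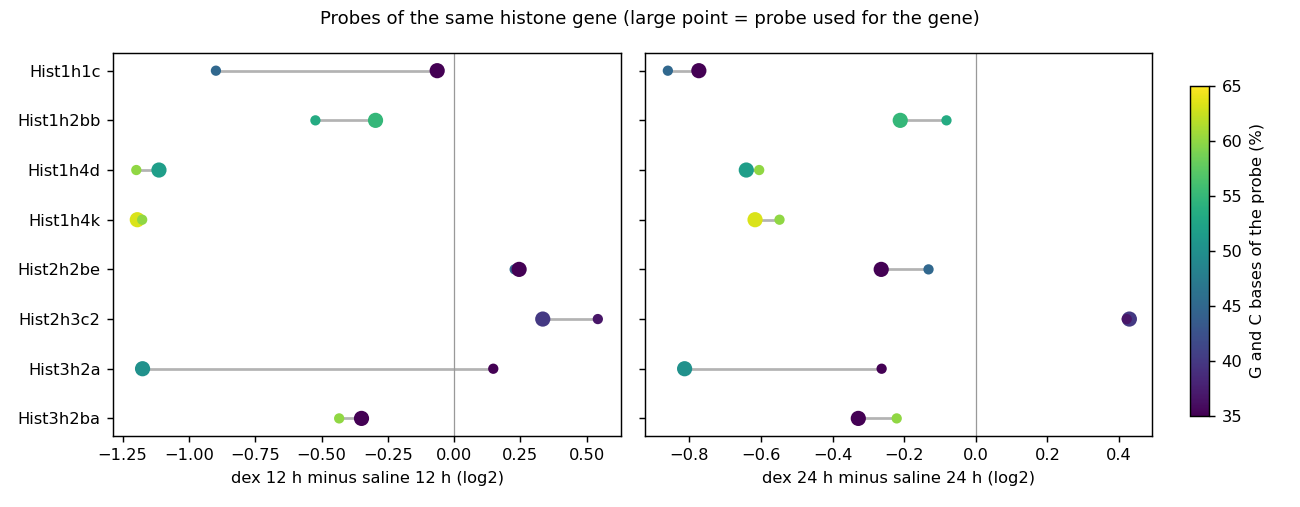
Log2 differences of each measured probe for genes with more than 1 probe, dexamethasone against saline at 12 h (left) and at 24 h (right); large points are the probes used for the gene, and colour gives each probe's percentage of G and C bases. At 12 h the probes of Hist1h1c, at -0.06 and -0.90, and of Hist3h2a, at -1.17 and 0.15, lie far apart, and those of Hist1h4k and Hist2h2be close together.

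The second question was how noise alone compared with baseline. Here 1 of 51 measured members was at least 2-fold lower, against 3.19% of 23997 genes, and none was at least 2-fold higher, against 2.63%. Below zero were 43 of 51, against 52.3% of all genes, with a median of -0.60 against -0.01 over all genes. With spike-in scaling 4 of 51 were at least 2-fold lower, against 3.70% of all genes. All 15 measured H2A members were below zero, with a median of -0.80. Of these, 10 belong to the group with shared probe sequence and are not separate readings. The medians were -0.73 for H3, -0.58 for H4, -0.34 for H1 and -0.07 for H2B, so H2B was again the nearest to zero. The member past 2-fold, Hist1h2ai, read -1.81 in noise only and -0.50 in baseline, 2.47-fold lower (1.87 to 3.27). Hist1h4m read -2.86 in noise only and -1.86 in baseline, 1.99-fold lower (1.49 to 2.66). Hist1h2ab read 4.47 in noise only and 5.46 in baseline, also 1.99-fold lower (1.51 to 2.62). The highest was Hist1h1t, at -4.56 in noise only and -4.86 in baseline, within spot error. In the same comparison all 20 mitosis genes were lower (median -1.01), as were all 12 erythroid (-0.71), all 12 neutrophil (-1.08) and all 10 measured B cell markers (-1.32). Their part in the histone differences was not tested.

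The third question was how noise with saline compared with baseline. In saline 12 h, 16 of 51 members lay 2-fold or more above baseline, against 4.42% of 24122 genes, and 2 were at least 2-fold lower, against 3.42%. Above zero were 42 of 51, against 55.1%, and the median was 0.71 against 0.06 over all genes. These arrays sat on separate slides, and the effect of slide cannot be told apart from that of group. The same single saline 12 h array is the reference for dexamethasone 12 h. The values above baseline here and the low values with dexamethasone at 12 h are therefore not independent. With spike-in scaling the median of saline 12 h against baseline turned to -0.088, against -0.73 over all genes. Under it 2 members were at least 2-fold higher, against 0.991% of all genes, and 6 lower, against 29.1%. Spike-in scaling moves every gene alike, so it leaves the gap between members and all genes as it was. The medians by type were 1.27 for H1, 1.19 for H4, 0.91 for H3, 0.69 for H2A and 0.06 for H2B, and with spike-in scaling 0.48, 0.39, 0.12, -0.10 and -0.73 in that order. In the same comparison 22 of 27 DNA replication genes (median 0.23), 10 of 12 neutrophil (0.51) and 7 of 11 B cell markers (0.44) were above zero, and 9 of 10 spiral ganglion neuron markers below it (-0.63). With spike-in scaling all these medians were below zero, and their part in the histone differences was not tested.

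Of the single members, Hist2h2ab read -2.14 in saline 12 h and -4.43 in baseline, 4.89-fold higher (3.43 to 6.97). Hist1h1d was 3.98-fold higher (3.02 to 5.25), Hist1h4c 2.98-fold, Hist1h1t 2.92-fold, Hist1h4j 2.70-fold and Hist1h3a 2.64-fold. Some of these are dim: Hist2h2ab was well above background on 4 of 6 arrays, and Hist1h1t and Hist1h3a on 5. Going the other way, Hist2h3c1 read -2.18 in saline 12 h and -1.09 in baseline, 2.13-fold lower (1.61 to 2.83). Hist1h2ac, well above background on 4 arrays, was 2.04-fold lower (1.22 to 3.39). Hist2h3c1 is thus a member whose saline 12 h level was low where most members' was high. At 24 h after noise and saline, 0 of 46 measured members were 2-fold apart from baseline, against 3.45% of 22817 genes. The median was -0.03, with values between -0.72 (Hist1h4m) and 0.50 (Hist1h1d). Within spot error were 40 of the 46, against 82.8% of all genes. In the same comparison all 12 neutrophil markers (median -0.68) and 10 of 11 B cell markers (-0.45) were below zero, against 11127 of 22817 genes. The medians were 0.04 for erythroid markers, -0.06 for mitosis genes and 0.13 for DNA replication genes. These lists thus did not all move with the histone median, and their part in the histone values was not tested.

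Against baseline, the dexamethasone 24 h array was lower for 41 of 46 measured members, against 47.5% of all genes, with a median of -0.73. At least 2-fold lower were 5, against 2.02% of 23263 genes. The dexamethasone 12 h array, on another slide than baseline, had a median of -0.12 against it. At least 2-fold lower were 0 of 51 measured members, against 625 of 23663 genes, and 1 was higher, against 1078. With spike-in scaling the member median was -1.09 in dexamethasone 24 h, with 26 members at least 2-fold lower against 5.47% of all genes. It was -0.61 in dexamethasone 12 h. Without that scaling, all 20 mitosis genes (median -0.75) and 26 of 27 DNA replication genes (-0.44) were lower in dexamethasone 12 h than in baseline. In dexamethasone 24 h all genes of both lists were lower (-1.06 and -0.71). Their part in the histone differences was not tested.

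Some dim members gave only bounds. Hist1h2bp was well above background in baseline and dexamethasone 12 h only, so it was at least 1.60-fold lower in noise only than in baseline and at least 1.52-fold higher in dexamethasone 12 h than in saline 12 h. Hist1h2ac read 1.52-fold lower in saline 24 h than in baseline, a plain difference from its own dim signal there and not a bound. Hist1h3a was at least 1.22-fold lower in dexamethasone 24 h than in saline 24 h. For a bound, the dim side is taken at the higher of its own signal and the array's lowest signal well above background. Spot error is not taken off, so the true folds can be smaller.

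Other genes of histone biology were read from gene lists. The histone variants that replace these proteins outside S phase had a median of -0.44 with dexamethasone against saline at 12 h (-0.14 with spike-in scaling) and -0.33 at 24 h, over 11 genes. Cenpa, the H3 variant of the centromere, was lower by a log2 difference of -1.07 at 12 h and -0.84 at 24 h. H2afj gave -0.98 and -0.77, but its probe shares a run of 38 bases with that of Hist2h2aa2. H1f0, the linker histone of resting cells, was lower than baseline on all 5 other arrays, from -2.28 in saline 12 h to -1.26 in dexamethasone 24 h. It was higher with dexamethasone than with saline at 12 h (0.61) and 24 h (0.55).

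The genes for transcription and 3′ processing of histone mRNA had medians of -0.0037 at 12 h and -0.11 at 24 h over 21 measured, with none 2-fold apart; the 12 h median was 0.30 with spike-in scaling. Slbp, whose protein binds the stem loop, was named after its values were seen. It gave 0.16 for dexamethasone against saline at 12 h and -0.69 at 24 h. Ccne1, the cyclin that acts at entry into S phase, gave -0.54 and -0.86. The histone chaperones had medians of -0.21 at 12 h (0.095 with spike-in scaling) and -0.28 at 24 h over 16 genes. Within them Chaf1b, a subunit of the complex that places new H3 and H4 on replicated DNA, gave -1.08 and -1.03, and Asf1b, which hands H3 and H4 on to it, gave -0.89 and -0.95. Among DNA replication genes, Tk1, the thymidine kinase of S phase, gave -1.12 and -1.44, and Rrm2, a subunit of ribonucleotide reductase, gave -0.60 and -1.38. Mki67, a marker of cycling cells, gave -0.76 and -1.24.

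**Figure D4:**
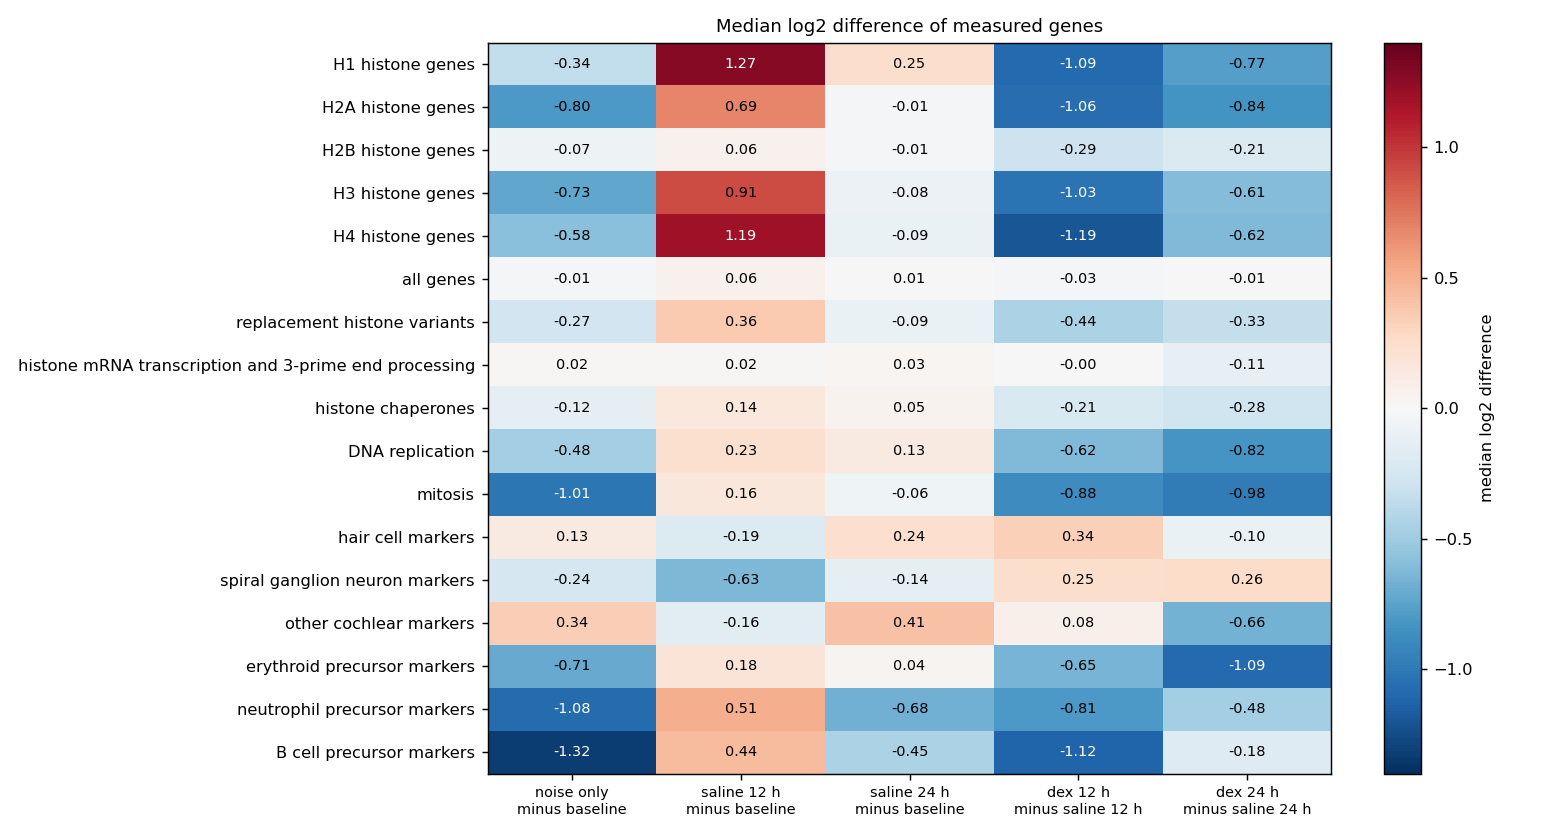
Median log2 difference of the measured genes of each histone type and gene list (rows) in 5 comparisons (columns), with the value in each cell. The H1, H2A, H3 and H4 rows are high in saline 12 h against baseline and low in both dexamethasone columns, while the H2B row lies between -0.29 and 0.06. With spike-in scaling the H2A value in saline 12 h against baseline is -0.10 and the H2B value -0.73.

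The promoters of the members share letters that the rule did not use. RefSeq on GRCm38.p6 gave 50 promoters for 49 members, each a window around the start, mostly before it. Searched were TATAAA on the given strand, CCAAT on both strands and the octamer ATTTGCAT on both strands. TATAAA stood in 25 of the 50 (50%), against 8.32% of all 32851 promoters. CCAAT stood in 44 (88%), against 37.4%, and in 2 of 8 H4 promoters. The octamer stood in 13 (26%), against 1.74%, namely in 7 of 17 H2A and 6 of 12 H2B promoters and in none of the 21 others. Below are the 120 bases before the start of an H1, an H2B and an H4 gene, to set the linker gene with large differences beside an H2B gene near zero, with the motifs in capitals.
Hist1h1b: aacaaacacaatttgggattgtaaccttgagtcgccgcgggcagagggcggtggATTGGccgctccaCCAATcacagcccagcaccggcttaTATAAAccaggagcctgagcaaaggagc
Hist1h2bm: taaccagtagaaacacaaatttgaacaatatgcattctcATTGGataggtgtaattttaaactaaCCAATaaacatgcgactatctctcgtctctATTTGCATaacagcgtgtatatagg
Hist1h4d: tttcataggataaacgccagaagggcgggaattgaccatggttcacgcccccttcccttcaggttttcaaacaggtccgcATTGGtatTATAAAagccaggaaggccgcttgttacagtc
They lie on GRCm38.p6 at chr13:21780626-21780745 (Hist1h1b, named H1f5 there, minus strand), chr13:21721924-21722043 (Hist1h2bm, named H2bc14, plus) and chr13:23581448-23581567 (Hist1h4d, named H4c4, plus). No motifs overlap in these stretches. A match is a description of letters and not a binding site.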

How the data were processed

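RNA of cochlear tissue was hybridised to 6 one-colour (Cy3) Agilent arrays, 1 per group, per the labels. Per the file headers, the authors used Agilent Feature Extraction 10.10.1.1, and the deposited intensity values are background-subtracted and spatially detrended, with probe positions on mm9. The deposited flags (unit other in the files) mark saturated, outlier and well-above-background spots, per the file headers. The deposited series matrix holds log2 values; how the authors made it is not stated, and each column equalled the log2 intensity minus a constant for 100% of probes (within 0.002), so scale, centring and direction were found from the values. Its column medians were -2.979 for noise only, -2.81 for dexamethasone 12 h, -2.85 for saline 12 h, -2.899 for dexamethasone 24 h, -2.928 for saline 24 h and -2.952 for baseline. 

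Outlier spots were left out, spots of a probe averaged, log2 taken and the 75th percentile over non-control probes subtracted. The probe with the highest mean represents a gene. A gene counts as measured if well above background on both arrays. The threshold was 2-fold. All 56 members matched a RefSeq symbol, 52 probes by accession and 16 by synonym. limma 3.58.1 (R 4.3.3) fitted dexamethasone against saline with a time term on 4 arrays, using genes above background on 2 or more arrays and Benjamini-Hochberg adjusted p-values; these measure only the spread between these arrays. Scripts ran in Python 3.11.15 with pandas 2.3.3 and numpy 2.4.6, and the fit was tested on simulated data. Spike-in scaling used the 7 of 10 spike-in probes well above background on every array.

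Members were named mainly from the 6 highest and 6 lowest of each comparison, the 3 brightest of each type and those with the largest bounds. The testis histones Hist1h1t, Hist1h2aa and Hist1h2ba were added. Not all members that meet these rules are named, and some named members do not meet them. From the other lists up to 4 genes were named, not always those with the largest differences. Clspn, a DNA replication gene at -1.79 for dexamethasone against saline at 24 h, was left out. The members and lists were chosen with earlier results of these data known. The lists were replacement variants, histone mRNA transcription and processing, chaperones, DNA replication, mitosis, and markers of hair cells, spiral ganglion neurons, other cochlear cells and erythroid, neutrophil and B cell precursors. The median log2 differences for dexamethasone against saline at 12 h and 24 h were 0.34 and -0.10 for hair cell markers, 0.25 and 0.26 for spiral ganglion neuron markers and 0.08 and -0.66 for other cochlear markers. Supt16h was not used here. The alternatives were other normalizations, spike-in scaling, other probe rules, other thresholds and leaving out each array in turn.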

Additional observations from a re-analysis of the deposited data

How the results depend on the processing

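No paired analysis was possible because each group has 1 array and no replicate number in its labels; the time term matched the 4 arrays of the fit by time. Without that term 784 of 24598 genes had an unadjusted p under 0.05, against 3607 with it, and no member passed the adjusted test either way. With spike-in scaling, 24 members lay above zero in saline 12 h against baseline, where 42 had without it. Among values that turned sign there were the median of all members (-0.088), the H2A median (-0.10) and Hist1h2aa (-0.10), Hist1h2ab (-0.11), Hist1h2af (-0.14), Hist1h2ag (-0.10), Hist1h2ah (-0.11), Hist1h2ao (-0.14), Hist1h2bq (-0.12), Hist1h3d (-0.16) and Hist3h2ba (-0.32). The same scaling turned the H1 median in saline 24 h against baseline to -0.0011 and the H2B median in dexamethasone 12 h against saline 12 h to 0.013. It gave medians of -0.29 in saline 24 h against baseline, -0.72 in dexamethasone 12 h and -0.82 in dexamethasone 24 h against saline. Its counts of members at least 2-fold apart were 4 in noise only, 8 in saline 12 h, 5 in dexamethasone 12 h and 5 in dexamethasone 24 h, and 16 passed the limma test. Quantile normalization gave medians of 0.42 in saline 12 h, -0.76 in dexamethasone 12 h and -0.68 over both times, with 16 members 2-fold apart in dexamethasone 12 h. Normexp with quantile normalization gave -0.44 in noise only, 0.42 in saline 12 h, -0.74 in dexamethasone 12 h, -0.55 in dexamethasone 24 h and -0.65 over both times, with 10 members apart in saline 12 h and 9 in dexamethasone 12 h. With 1 member per shared probe sequence, chosen after seeing the data, the medians were -0.49 in noise only and -0.87 in dexamethasone 12 h, with counts of 0 and 18. The mean over a gene's probes gave 0 in noise only and turned Hist2h2bb there to 0.14, where its other probe was above background on no array. A percentile over detected probes gave 3 in noise only, and brighter genes alone gave 0 in noise only and 10 in saline 12 h. A threshold of 1.5-fold gave 26, 39, 2 and 29 members in noise only, saline 12 h, saline 24 h and dexamethasone 24 h, and 3-fold gave 0 in noise only, 2 in saline 12 h, 1 in dexamethasone 12 h and 0 in dexamethasone 24 h. Leaving out each array in turn, with no time term, gave medians over both times of -1.18 without dexamethasone 12 h, -0.29 without saline 12 h, -0.55 without dexamethasone 24 h and -1.27 without saline 24 h, and no member past the test. Over all settings, 96 values for whole comparisons stayed close to those reported, 39 moved and 1 turned sign. For single members or types 1524 stayed close, 120 moved and 13 turned sign. The cause was not tested for any of these changes. Signal over background limits the 11 members not well above background on every array, and 1 array per group limits every comparison.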
